A study of Homo sapiens with 16 samples.

Results

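Interferon-stimulated genes are the genes that cells switch on when they detect interferon. A set of 43 of them was followed through poly(A) RNA-seq of 2 human cell lines, as 43 of the 27434 gene rows in each deposited file. The genes were chosen by name, as classical members of the response, and each was found by its NCBI gene number in a row of its own. The series has 16 libraries in 8 groups of 2. U2OS, an osteosarcoma line of wild-type background, was transfected with a plasmid carrying the mouse SAM68 gene, with a control plasmid, with an siRNA pool against SAM68, or with a non-targeting control siRNA pool. HCT116, a colorectal carcinoma line, was either SAM68 KO (knockout) or wild type, and each genotype received an siRNA pool against the long noncoding RNA NORAD or the control siRNA pool. All cells were transfected with a lipid reagent, so no group was left untransfected. The siRNAs were used at 50 nM and the plasmids at 100 ng per 20000 cells, and cells were harvested after 48 h. Whether the knockout line is a single clone is not given in the sources used here. SAM68, encoded by KHDRBS1, is an RNA-binding protein, and the study asked how it bears on the action of NORAD on Pumilio proteins.

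Type I and type III interferons bind receptors at the cell surface, and the Janus kinases on those receptors phosphorylate STAT proteins. A pair of STAT proteins and IRF9 then form a complex that binds the interferon-stimulated response element (ISRE) in the promoters of target genes. The products block viruses at many steps. IFITM proteins hinder membrane fusion, IFIT proteins bind foreign RNA, OAS proteins and the kinase PKR sense double-stranded RNA, and ISG15 is a ubiquitin-like protein that is attached to other proteins. Many of these genes are transcribed at a low basal level in cells that have met no virus.

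The promoters are shown because the ISRE core is what these genes are known to share. The RefSeq table (assembly GRCh38.p14) held 37 of the 43 promoters, each from 250 bases before to 50 after the gene's start. Not matched were IFIT2, IFITM2, IRF7, OAS2, OASL and USP18. The core searched was GAAANNGAAA on either strand, which reads TTTCNNTTTC on the other one, and overlapping matches were counted separately. It was present in 21 of the 37 promoters (56.8%), against 3.65% of 27305 promoters in the table. At least 2 cores were present in 16 of the 37 (43.2%), against 0.271% of all. The gamma-activated site TTCNNNGAA, whose letters read the same on both strands and which may overlap an ISRE core, was present in 9 of the 37 (24.3%), against 7.88% of all. These are matches of letters in a window and were not tested as binding sites.

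Of the 7 promoters printed here, 5 belong to genes that were higher in SAM68 KO cells, and 2 to genes that differed strongly between the cell lines. Not printed are SAMD9, also higher in SAM68 KO cells, with 1 core, and BST2, which was lower there, with 2 cores. Each is written 5′ to 3′ on the gene's own strand with ISRE cores in capitals. They lie at chr10:89392373-89392672, plus strand (IFIT1), chr10:89414318-89414617, plus strand (IFIT5), chr4:88456869-88457168, plus strand (HERC5), chr4:88378602-88378901, plus strand (HERC6), chr6:32853655-32853954, minus strand (TAP1), chr1:1013247-1013546, plus strand (ISG15) and chr6:32844630-32844929, minus strand (PSMB8).
IFIT1: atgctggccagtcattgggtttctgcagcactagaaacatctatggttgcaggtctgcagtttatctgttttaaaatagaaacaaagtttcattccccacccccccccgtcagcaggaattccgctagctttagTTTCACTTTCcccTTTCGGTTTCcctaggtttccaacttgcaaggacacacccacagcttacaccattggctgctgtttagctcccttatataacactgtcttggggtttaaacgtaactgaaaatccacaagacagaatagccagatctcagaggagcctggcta
IFIT5: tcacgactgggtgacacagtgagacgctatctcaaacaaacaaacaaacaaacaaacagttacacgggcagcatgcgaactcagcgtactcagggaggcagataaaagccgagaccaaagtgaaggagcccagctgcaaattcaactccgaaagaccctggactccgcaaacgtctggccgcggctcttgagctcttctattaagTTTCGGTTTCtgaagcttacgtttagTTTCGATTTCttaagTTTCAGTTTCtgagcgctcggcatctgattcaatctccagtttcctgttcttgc
HERC5: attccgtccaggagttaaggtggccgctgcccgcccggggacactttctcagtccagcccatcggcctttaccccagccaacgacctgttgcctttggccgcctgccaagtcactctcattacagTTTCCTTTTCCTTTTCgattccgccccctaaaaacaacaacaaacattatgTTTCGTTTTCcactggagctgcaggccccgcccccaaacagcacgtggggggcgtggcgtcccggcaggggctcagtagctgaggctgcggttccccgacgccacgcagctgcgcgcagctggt
HERC6: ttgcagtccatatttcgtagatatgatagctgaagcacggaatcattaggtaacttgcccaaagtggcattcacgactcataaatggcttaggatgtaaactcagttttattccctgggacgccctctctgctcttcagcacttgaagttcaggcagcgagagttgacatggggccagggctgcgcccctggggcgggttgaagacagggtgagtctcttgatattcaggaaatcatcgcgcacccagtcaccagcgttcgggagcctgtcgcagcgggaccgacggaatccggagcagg
TAP1: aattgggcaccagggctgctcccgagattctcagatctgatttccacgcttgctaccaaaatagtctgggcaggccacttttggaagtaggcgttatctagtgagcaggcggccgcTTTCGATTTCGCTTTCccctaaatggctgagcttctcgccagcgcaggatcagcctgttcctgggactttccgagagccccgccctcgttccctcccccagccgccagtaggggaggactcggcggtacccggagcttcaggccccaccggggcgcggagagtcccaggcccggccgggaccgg
ISG15: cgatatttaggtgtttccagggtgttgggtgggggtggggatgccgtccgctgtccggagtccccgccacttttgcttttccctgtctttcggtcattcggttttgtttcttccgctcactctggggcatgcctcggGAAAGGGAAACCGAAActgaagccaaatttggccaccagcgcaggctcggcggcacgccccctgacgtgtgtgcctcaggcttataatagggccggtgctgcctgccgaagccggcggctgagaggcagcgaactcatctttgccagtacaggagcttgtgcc
PSMB8: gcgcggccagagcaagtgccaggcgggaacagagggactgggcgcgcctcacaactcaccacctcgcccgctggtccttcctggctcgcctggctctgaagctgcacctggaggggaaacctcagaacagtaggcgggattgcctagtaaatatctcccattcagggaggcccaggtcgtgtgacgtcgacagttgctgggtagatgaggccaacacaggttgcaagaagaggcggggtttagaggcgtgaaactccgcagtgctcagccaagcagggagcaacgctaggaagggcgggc
IFIT1 has 2 cores, at 116 and 103 bases before the start. IFIT5 has 3, at 45, 19 and 4 bases before the start. HERC5 has 3, and those at 125 and 119 bases before the start overlap. In TAP1 and ISG15 a pair of overlapping cores forms an unbroken run of capitals. HERC6 and PSMB8 have no match in this window, which says only that these letters are not in these bases.

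The targeted genes followed the labels. KHDRBS1 was at 31.6 to 44.5 CPM (counts scaled to library size) in the 4 SAM68 KO libraries and at 206 to 241 CPM in the 4 wild-type HCT116 libraries. NORAD was at 47.4 to 77.4 CPM under NORAD siRNA and at 225 to 252 CPM under control siRNA in HCT116. In U2OS, KHDRBS1 had 48.6 and 80.7 CPM after SAM68 siRNA against 245 and 249 CPM after control siRNA. Cells given the SAM68 plasmid had 531 and 593 CPM of KHDRBS1, against 220 and 277 CPM in cells given the control plasmid. The plasmid carries the mouse gene, and reads were counted on human genes. How much of the plasmid's RNA these values hold is not known. Neither U2OS change of KHDRBS1 was called (edgeR's quasi-likelihood test, Benjamini-Hochberg adjusted p = 0.185 for the siRNA and 1 for the plasmid). Library depth was 11349545 to 27387412 estimated counts. Summed levels of 8 epithelial markers were 924 to 1296 TPM (transcripts scaled for gene length and depth) in U2OS and 4100 to 5287 TPM in HCT116. Those of 8 mesenchymal and bone markers were 3018 to 4652 TPM in U2OS and 4.47 to 8.28 TPM in HCT116. Those of 9 blood and endothelial markers were at most 6.23 TPM in any library, mostly LYZ, at up to 5.05 TPM. Not every marker followed its list. In HCT116 libraries CDX1 and VIL1 were at 0 TPM and LGALS4 at most 0.16 TPM. COL1A2 was at most 0.46 TPM in U2OS.

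Transcript levels of the 43 genes spanned a wide range in both lines. The genes held 0.0717% to 0.107% of all counts in U2OS libraries and 0.110% to 0.119% in HCT116 libraries. Their summed level was 646.89 to 856.48 TPM in U2OS and 1179.31 to 1419.41 TPM in HCT116. The median gene averaged 4.10 TPM in U2OS and 5.06 TPM in HCT116. In each line, 10 genes were at 10 TPM or more in every library and 8 were below 1 TPM in every library. In a bulk measurement, a lower level may come from fewer expressing cells or from less RNA per cell, and these cannot be told apart.

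IFITM3, which hinders fusion of viral and cell membranes, had the highest level in both lines, with a lowest, median and highest library of 159, 193 and 231 TPM in U2OS and 503, 600 and 664 TPM in HCT116. Its near-identical neighbour IFITM2 averaged 107 TPM in U2OS and 168 TPM in HCT116, and reads can be split between the 2 genes. ADAR, an RNA-editing enzyme that marks self RNA, averaged 91.7 TPM in U2OS and 103 TPM in HCT116. The remaining leaders of U2OS were PSMB8, a catalytic subunit of the immunoproteasome, with a mean of 60.3 TPM, UBE2L6, the conjugating enzyme for ISG15, with 31.4 TPM, EIF2AK2, which encodes PKR, with 31.4 TPM, TRIM21, a ubiquitin ligase and cytosolic antibody receptor, with 25.1 TPM, and TAP1, a subunit of the peptide transporter for antigen presentation, with 21.7 TPM. Those of HCT116 were ISG15 with 190 TPM, TAP1 with 39.3 TPM, EIF2AK2 with 22.5 TPM, UBE2L6 with 21.7 TPM and OAS3, a sensor of double-stranded RNA, with 18.0 TPM. At the other end, MX1, OAS2, RSAD2, XAF1 and IFI44L stayed below 1 TPM in every library of both lines. The interferon genes themselves were close to absent, since the 9 ligands searched summed to at most 0.76 TPM in any library and IFNB1 was listed at 0 in all 16.

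**Figure D1:**
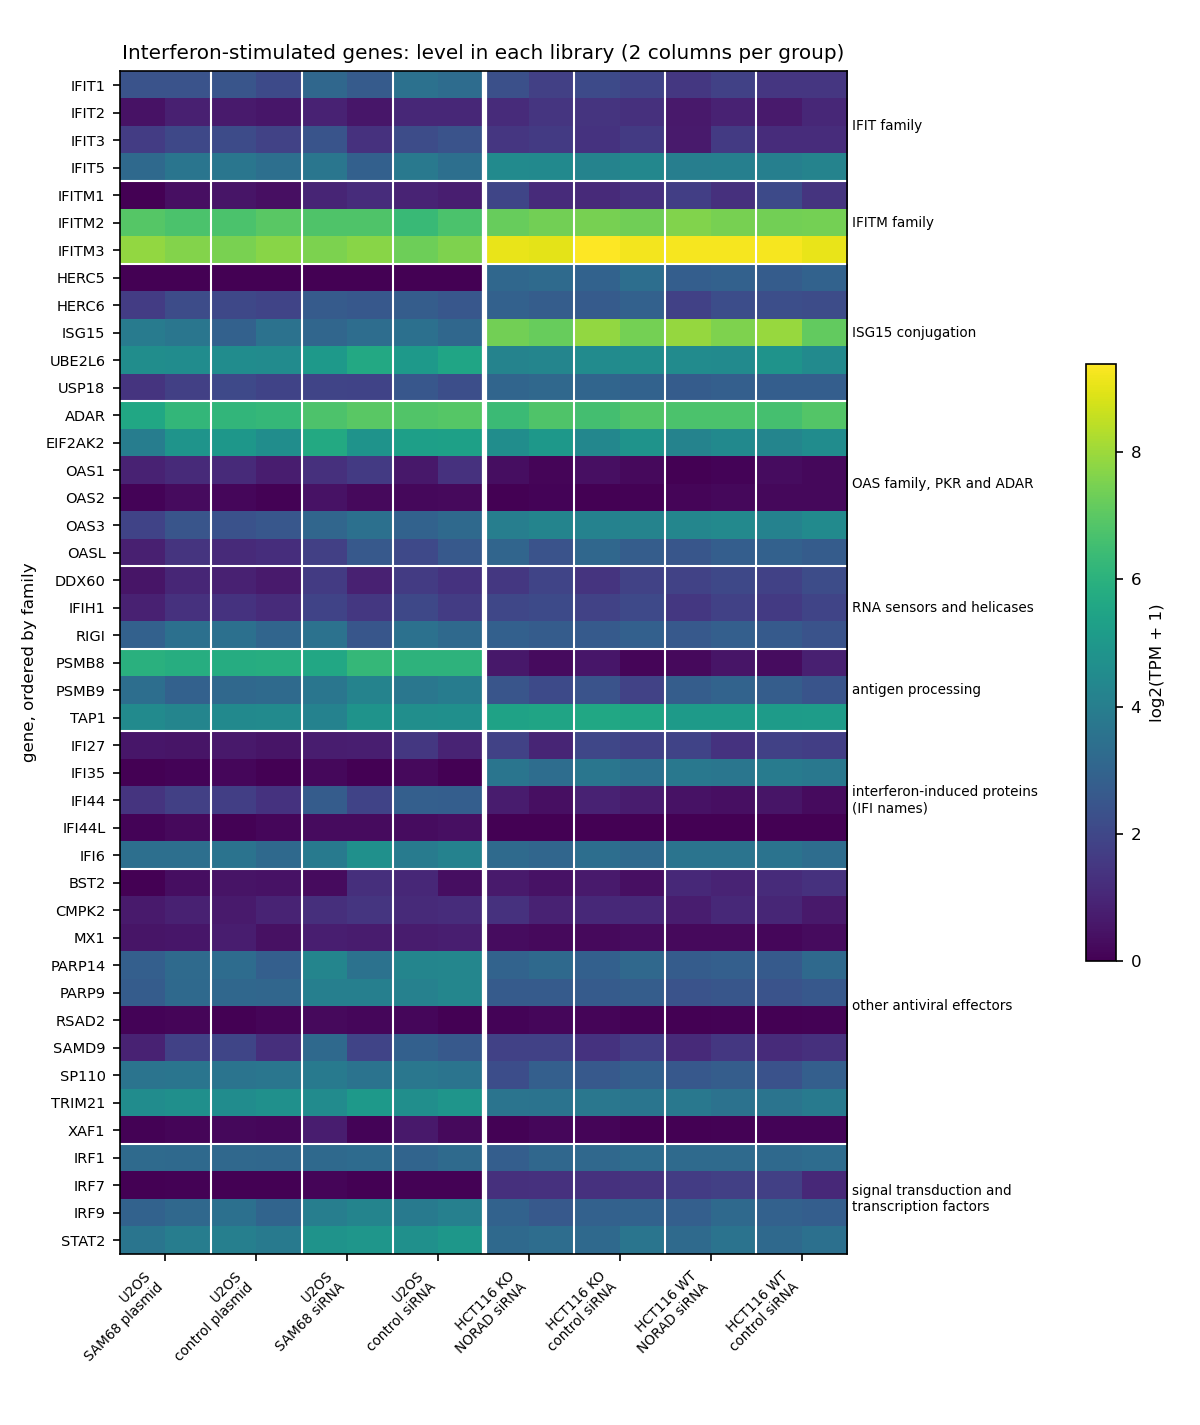
Level of each of the 43 genes (rows, ordered by family) in each library (columns, 2 per group), as log2(TPM + 1). IFITM3, IFITM2 and ADAR are bright throughout, PSMB8 is bright in U2OS columns, and ISG15 is brighter in HCT116 columns.

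In HCT116, SAM68 KO cells had higher levels of several antiviral effectors than wild-type cells, among them HERC6, HERC5, TAP1, SAMD9 and 3 IFIT genes. Averaged over the siRNAs, 8 of the 36 members that passed the filter on low counts were called (adjusted p below 0.05 over 13764 genes), 7 of them higher and 1 lower in the knockout. Among all 13764 genes 17.6% were called, 11.0% higher and 6.62% lower, and the members' counts are to be read against these shares. The median log2 fold change of the 36 members was 0.02, against -0.01 over all genes tested. Of the 36, 18 were positive and 18 negative, where 49.0% of all genes were positive. Not tested were IFI44L, MX1, OAS1, OAS2, PSMB8, RSAD2 and XAF1, which had at most 0.485 CPM in any HCT116 library. Among cell type markers, EPCAM was called higher in the knockout (344 CPM in KO cells, 274 CPM in wild-type cells, log2 fold change 0.32 ± 0.07) and VIM lower (1.62 CPM in KO cells, 3.56 CPM in wild-type cells, -1.09 ± 0.19), and their part in the result was not tested.

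The IFIT family, whose members bind foreign RNA, had 3 of its 4 genes called higher. IFIT2 was at 2.78 and 3.32 CPM in KO cells with NORAD siRNA and 3.41 and 2.84 CPM in KO cells with control siRNA, against 1.18 and 1.70 CPM in wild-type cells with NORAD siRNA and 1.21 and 2.0 CPM with control siRNA. All 4 knockout libraries lay above all 4 wild-type ones. The log2 fold change of IFIT2 was 1.04 ± 0.22 (standard error, adjusted p = 0.0192). IFIT1, which binds RNA with an incomplete cap, was at 11.4 and 6.02 CPM in KO cells with NORAD siRNA and 8.85 and 6.72 CPM with control siRNA. In wild-type cells IFIT1 was at 5.01 and 6.32 CPM with NORAD siRNA and 4.72 and 4.36 CPM with control siRNA. The genotypes overlapped in 1 knockout library of IFIT1, and the log2 fold change was 0.69 ± 0.21 (adjusted p = 0.0489). IFIT5, which binds RNA with an uncapped phosphate end, was at 55.9 and 46.9 CPM in KO cells with NORAD siRNA and 41.6 and 43.7 CPM with control siRNA, against 36.7 and 35.5 CPM in wild-type cells with NORAD siRNA and 37.5 and 38.6 CPM with control siRNA. No knockout library overlapped a wild-type one. Its log2 fold change was 0.34 ± 0.08 (adjusted p = 0.0272). IFIT3 had a log2 fold change of 0.56 ± 0.31 (adjusted p = 0.217).

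Of the 5 genes listed under ISG15 conjugation, 3 had a positive log2 fold change. Among them 2 were called, both higher in SAM68 KO cells. HERC6, a HERC-family ligase that carries out ISG15 conjugation in mouse, was at 16.5 and 12.5 CPM in KO cells with NORAD siRNA and 12.6 and 14.2 CPM with control siRNA. In wild-type cells HERC6 was at 5.72 and 7.97 CPM with NORAD siRNA and 8.61 and 7.52 CPM with control siRNA. No knockout library of HERC6 overlapped a wild-type one, and the log2 fold change was 0.91 ± 0.14 (adjusted p = 0.00768). HERC5, the main ISG15 ligase of human cells, was at 17.6, 16.5, 14.3 and 18.5 CPM in the KO libraries, against 12.7, 12.9, 11.6 and 13.2 CPM in the wild-type libraries, again without overlap. Its log2 fold change was 0.41 ± 0.11 (adjusted p = 0.0328). ISG15 itself was not called, at 53.3 ± 13.6 CPM in KO cells and 60.5 ± 17.4 CPM in wild-type cells (SD, n = 4 each), nor was USP18, the enzyme that removes ISG15, at 8.37 ± 0.802 CPM in KO cells and 6.69 ± 0.239 CPM in wild-type cells (edgeR, adjusted p = 0.0777).

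Among the other members, SAMD9, which restricts poxviruses, was at 11.7, 9.59, 6.76 and 9.02 CPM in the KO libraries and 4.94, 7.56, 5.12 and 5.82 CPM in the wild-type ones. The groups overlapped in 1 library, and the log2 fold change of SAMD9 was 0.66 ± 0.17 (adjusted p = 0.0299). TAP1 was at 67.0, 60.1, 72.1 and 63.6 CPM in the KO libraries and 52.8, 51.0, 56.8 and 48.5 CPM in the wild-type ones, without overlap. Its log2 fold change was 0.33 ± 0.09 (adjusted p = 0.0332), while that of PSMB9, the immunoproteasome gene beside it, was -0.62 ± 0.25 (adjusted p = 0.104). BST2, the tetherin that holds budding virus at the cell surface, was the gene called lower, at 0.333, 0.182, 0.316 and 0.147 CPM in the KO libraries and 0.588, 0.463, 0.652 and 0.727 CPM in the wild-type ones. These are few reads, and the log2 fold change of BST2 was -1.34 ± 0.39 (adjusted p = 0.0442). The 3 IFITM genes and the 4 signalling and transcription factor genes STAT2, IRF1, IRF7 and IRF9 had no call, with family medians of -0.13 and -0.11 on the log2 fold change scale. Nor had the 4 tested IFI genes (median -0.16, 1 of them positive), the 4 tested OAS, PKR and ADAR genes (0.06) or the 3 RNA sensors and helicases (0.21). Over the 36 members, all 4 KO libraries lay above all 4 wild-type ones in 7, where 10.4% of all genes did so, and below them in 1, where 8.71% did.

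**Figure D2:**
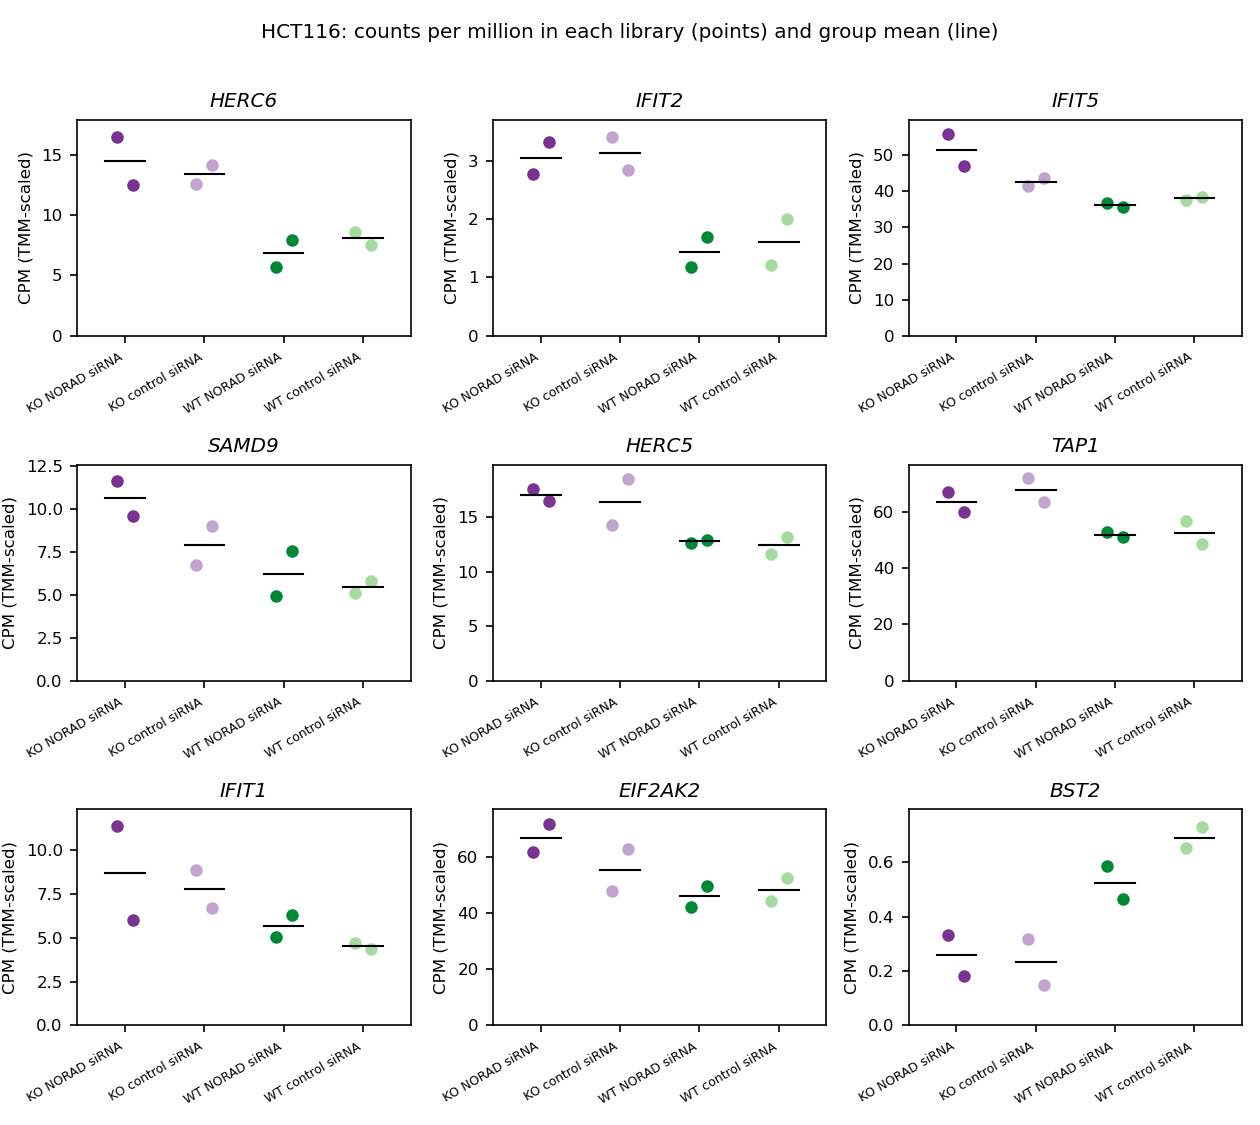
CPM of 9 genes in each HCT116 library (points) with the mean of each group of 2 (line), SAM68 KO groups left of wild-type groups. In HERC6, IFIT2, IFIT5, HERC5 and TAP1 every KO point lies above every wild-type point, and in BST2 every KO point lies below.

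Taken under each siRNA alone, the genotype contrast gave fewer calls. With NORAD siRNA, 5 of 36 members were called, all higher in the knockout, where 18.1% of all genes were called and 11.6% were called higher. They were HERC6 (log2 fold change 1.09 ± 0.20, adjusted p = 0.0166), IFIT5 (0.51 ± 0.12, adjusted p = 0.0249), IFIT2 (1.11 ± 0.31, adjusted p = 0.0402), EIF2AK2 (0.54 ± 0.16, adjusted p = 0.045) and SAMD9 (0.77 ± 0.23, adjusted p = 0.0473). EIF2AK2 was at 61.5 and 71.8 CPM in KO cells and 42.3 and 49.6 CPM in wild-type cells under NORAD siRNA. The count of 5 came to 0 without wild-type NORAD siRNA replicate 1, wild-type NORAD siRNA replicate 2 or KO NORAD siRNA replicate 1, and to 2 without KO NORAD siRNA replicate 2. With an offset for the GC content and length of the 3′ UTR it also came to 2, HERC6 and TAP1. The log2 fold changes of the genes that lost the call were then 0.93 ± 0.28 for IFIT2, 0.45 ± 0.19 for SAMD9, 0.28 ± 0.10 for EIF2AK2 and 0.09 ± 0.11 for IFIT5. The share of all genes called in these alternative fits is not given here, and the counts cannot be told apart from a change over all genes. With control siRNA, no member was called, where 0.312% of all genes were called. At an unadjusted p below 0.05, where 9.22% of all genes passed, 5 members were higher (HERC5, HERC6, IFIT1, IFIT2 and TAP1, against 5.15% of all genes) and 1 was lower (BST2, against 4.07%). In edgeR's test with control siRNA HERC6 had a log2 fold change of 0.73 ± 0.20 (adjusted p = 0.261), IFIT2 0.98 ± 0.32, TAP1 0.36 ± 0.12, BST2 -1.60 ± 0.57 and HERC5 0.41 ± 0.16 (adjusted p = 0.367 to 0.45). DESeq2 also called no member. The libraries did not overlap in the same direction under both siRNAs for 8 higher genes, HERC5, HERC6, IFIT2, IFIT5, PARP9, SAMD9, TAP1 and USP18, where 12.3% of all genes did so, and for 2 lower genes, BST2 and IRF1, where 10.9% did. Under control siRNA alone 13 members were higher without overlap (18.2% of all genes) and 4 lower (16.4%). Under NORAD siRNA alone 11 were higher (33.9% of all genes) and 10 lower (34.8%).

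**Figure D3:**
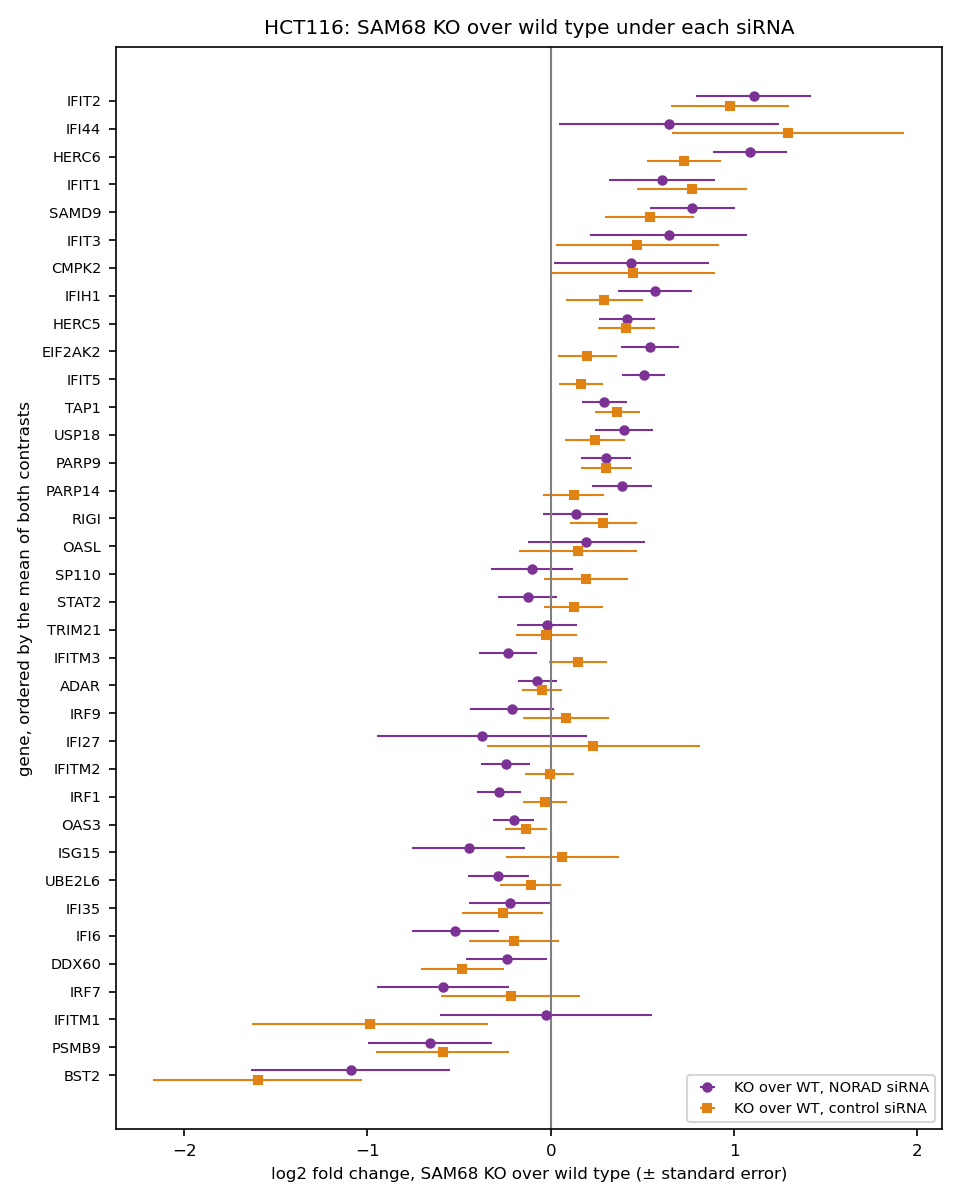
Log2 fold change of SAM68 KO over wild-type HCT116 (x axis, with standard error) for the 36 tested genes, with NORAD siRNA (circles) and control siRNA (squares). IFIT2 and HERC6 are to the right of 0 and BST2 to the left under both siRNAs, while ISG15 and IFITM3 are left of 0 with NORAD siRNA and right of it with control siRNA.

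GC content moved with the genotype contrast. Across 11967 genes with an annotated 3′ UTR, the log2 fold change of the knockout over wild type correlated with the GC content of the 3′ UTR at Spearman's rho = -0.613 for the mean of both siRNAs, -0.700 with NORAD siRNA and -0.324 with control siRNA. Genes are not independent replicates, and these values are descriptions. The 7 members called higher had a median 3′ UTR GC content of 38.8%, against 44.4% in the other 29 tested members, and the part of GC content in the calls was not tested beyond the offset given next. With an offset for GC content and length, HERC6 kept a log2 fold change of 0.83 ± 0.14 (adjusted p = 0.0035, range over 13 alternatives 2.44e-08 to 0.045), and IFIT2, SAMD9, HERC5 and TAP1 also stayed called in the mean of both siRNAs. IFIT5, with a 3′ UTR of 31.6% GC, came to 0.08 ± 0.08 under that offset (adjusted p = 0.55, range over 13 alternatives 0.00413 to 0.55), while IFIT1 and BST2 missed the threshold at log2 fold changes of 0.61 ± 0.21 and -1.10 ± 0.39, close to their values without the offset. HERC6 was called in each of the 13 alternative analyses of the mean of both siRNAs. IFIT1 lost its call with another scaling too, and BST2 without the filter on low counts. The share of all genes called in the alternative fits is not given here. The count of 8 was also sensitive to single libraries. It came to 1 without wild-type NORAD siRNA replicate 1 or without KO NORAD siRNA replicate 1, to 2 without wild-type control siRNA replicate 1 or KO control siRNA replicate 2, to 3 without KO NORAD siRNA replicate 2 and to 4 without wild-type NORAD siRNA replicate 2.

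NORAD siRNA itself left the interferon-stimulated genes without a call in either genotype. In wild-type cells none of 36 members was called by edgeR or by DESeq2, and none had an unadjusted p below 0.05, where 0.00727% of all genes were called and 1.32% passed the unadjusted threshold, 0.639% higher and 0.676% lower. The smallest unadjusted p was that of RIGI, a cytosolic RNA sensor, at 14.9 and 17.1 CPM with NORAD siRNA and 15.0 and 11.6 CPM with control siRNA (log2 fold change 0.26 ± 0.18, adjusted p = 0.999). The next were IFITM2 (0.18 ± 0.13), HERC6 (-0.25 ± 0.21), IFITM3 (0.17 ± 0.16) and IFIT1 (0.31 ± 0.30). Of these 5 genes, only IFIT1 had groups that did not overlap, and over all members 3 were higher without overlap, where 13.0% of all genes were, and 2 lower, where 13.9% were. In SAM68 KO cells none was called, where 0.00727% of all genes were called, and 1 had an unadjusted p below 0.05, where 11.3% of all genes did, 6.98% higher and 4.34% lower. This was IFIT5, at 55.9 and 46.9 CPM with NORAD siRNA and 41.6 and 43.7 CPM with control siRNA (log2 fold change 0.27 ± 0.12, adjusted p = 0.44). With the GC and length offset its change was 0.04 ± 0.11. Over 11967 genes the log2 fold change of NORAD siRNA correlated with 3′ UTR GC content at Spearman's rho = -0.676 in KO cells and 0.382 in wild-type cells. The next were IRF1, a transcription factor of interferon signalling (-0.26 ± 0.12, without overlap), SAMD9 (0.42 ± 0.23), UBE2L6 (-0.29 ± 0.17) and EIF2AK2 (0.27 ± 0.16), with adjusted p of 0.448 to 0.508. Groups did not overlap in 5 members that were higher, IFIT3, IFIT5, IFIH1, SAMD9 and USP18, where 22.0% of all genes were, and in 2 that were lower, IRF1 and UBE2L6, where 21.4% were. The members' median log2 fold change was 0.00 in wild-type cells and -0.02 in KO cells, against 0.00 over all genes in both.

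The difference between the NORAD siRNA effects in KO and wild-type cells was tested as an interaction, and 0 of 36 members were called (0% of all genes), by edgeR or by DESeq2. None had an unadjusted p below 0.05, where 7.61% of all genes did, 5.03% higher and 2.59% lower. The smallest p was that of IFIT5, with a difference of 0.34 ± 0.17 on the log2 scale (adjusted p = 0.642). Both contrasts behind it have their own control libraries. IFIT5 was followed by IFITM3 (-0.38 ± 0.23), EIF2AK2 (0.34 ± 0.23), IRF1 (-0.25 ± 0.17) and IFITM2 (-0.24 ± 0.19, which is 0.038 with the GC and length offset).

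In U2OS, lowering SAM68 with siRNA gave no called member among 35 tested, where 0.00639% of all 15658 genes were called, and DESeq2 called none either. KHDRBS1, the siRNA's own target, was not called by edgeR in this contrast, so a missing call does not show that a level was unchanged. Not tested in U2OS were BST2, HERC5, IFI27, IFI35, IFITM1, IRF7, OAS2 and RSAD2, which had at most 0.649 CPM in any library. At an unadjusted p below 0.05, 2 members were lower, where 0.703% of all genes were. IFIT1 was at 16.5 and 12.2 CPM with SAM68 siRNA against 22.5 and 19.8 CPM with control siRNA, a log2 fold change of -0.56 ± 0.24 (adjusted p = 1). USP18 was at 2.62 and 2.75 CPM with SAM68 siRNA against 4.58 and 3.71 CPM with control siRNA, a log2 fold change of -0.62 ± 0.27 (adjusted p = 1). The next were IFIT2 (-0.71 ± 0.41), IFI44 (-0.61 ± 0.35) and the mono-ADP-ribosyltransferase gene PARP14 (-0.39 ± 0.25). SAM68 siRNA replicate 2 was the lower library in each of these 3 genes. Without it the log2 fold changes were -0.35 for IFIT2, -0.17 for IFI44, -0.10 for PARP14 and -0.36 for IFIT1, and without SAM68 siRNA replicate 1 they were -1.02, -1.06, -0.67 and -0.70. In 7 members the SAM68 siRNA libraries lay below both control libraries without overlap, where 9.42% of all genes did, and in 2 they lay above, where 9.46% did. Families differed in direction. The 2 tested IFITM genes and the 3 tested signalling and transcription factor genes were all positive, with medians of 0.20 and 0.12. The 3 RNA sensors and helicases were all negative, with a median of -0.30. All 4 tested IFIT genes had a negative log2 fold change, with a family median of -0.51, and none was called. All 4 were lower in SAM68 siRNA replicate 2 than in replicate 1, IFIT3 at 1.93 against 5.27 CPM. In the median over the 35 members the log2 fold change was -0.09, against -0.01 over all genes. Across 13152 genes with an annotated 3′ UTR, the log2 fold change of SAM68 siRNA correlated with 3′ UTR GC content at Spearman's rho = 0.398. The part of GC content in these values was not tested beyond the offset.

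The SAM68 plasmid also gave no called member among 35, where 0.00639% of all genes were called, and DESeq2 called none. KHDRBS1 was not called by edgeR in this contrast either. No member had an unadjusted p below 0.05, where 0.549% of all genes did. The smallest p belonged to ISG15, at 5.11 and 3.37 CPM with the SAM68 plasmid against 1.91 and 3.18 CPM with the control plasmid (log2 fold change 0.70 ± 0.36, adjusted p = 1). Both SAM68 plasmid libraries of ISG15 lay above both control ones, but the replicates of each group differed by about as much as the groups did. USP18 had 2.30 and 2.61 CPM in SAM68 plasmid cells against 3.54 and 3.04 CPM in control plasmid cells (-0.41 ± 0.28). Groups did not overlap in 2 members that were higher, IRF1 and ISG15, where 10.0% of all genes were, and in 2 that were lower, USP18 and XAF1, where 7.94% were. IFITM3 (0.30 ± 0.24, with the opposite sign without SAM68 plasmid replicate 1, at -0.038), IFI44L (0.77 ± 0.63) and IFIT1 (0.27 ± 0.25) followed. The members' median log2 fold change was 0.09, against 0.01 over all genes. For the SAM68 plasmid the correlation with 3′ UTR GC content was Spearman's rho = 0.238 over 13152 genes. IFIT1 had opposite signs with SAM68 siRNA and with the SAM68 plasmid, while USP18 was lower with both (-0.62 and -0.41). None of these changes was called. In HCT116, IFIT1 was higher in SAM68 KO cells (0.69), the other direction than with SAM68 siRNA here.

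The largest shift of the set within U2OS was between the controls. The control plasmid libraries had lower levels of many members than the control siRNA libraries, with a median log2 fold change of -0.49 over 35 members against -0.11 over all genes, and 10 of the 35 were positive, where 41.9% of all genes were. These groups differ in the nucleic acid that was transfected, and whether they were grown and prepared together is not given in the sources used here. The same control libraries also serve the contrasts with SAM68 siRNA and with the SAM68 plasmid. A single member was called, PARP9, where 1.30% of all genes were called and 1.03% were called lower. PARP9, which forms an antiviral complex with the ubiquitin ligase DTX3L, had 15.9 and 15.7 CPM in control plasmid cells against 29.7 and 33.9 CPM in control siRNA cells. Its log2 fold change was -1.01 ± 0.19 (adjusted p = 0.0439, range over alternatives 0.0063 to 0.445). PARP9 was no longer called under another scaling or when any of the 4 libraries was left out, and the count was then 0.

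The next members by p did not reach the threshold. IFIT1 had 11.1 and 8.52 CPM in control plasmid cells against 22.5 and 19.8 CPM in control siRNA cells (log2 fold change -1.11 ± 0.25, adjusted p = 0.0614). PARP14 had 39.7 and 28.4 CPM in control plasmid cells against 71.5 and 74.3 CPM in control siRNA cells (-1.10 ± 0.25, adjusted p = 0.0679). STAT2, the STAT protein dedicated to type I and type III interferon signalling, had 40.0 and 35.9 CPM in control plasmid cells against 57.1 and 69.0 CPM in control siRNA cells (-0.73 ± 0.19, adjusted p = 0.08). IFI44 had 2.06 and 1.52 CPM in control plasmid cells against 4.91 and 4.40 CPM in control siRNA cells (-1.39 ± 0.37, adjusted p = 0.0844). None of these 4 genes had overlapping groups.

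At an unadjusted p below 0.05, 12 of 35 members were lower and 0 were higher with the control plasmid, where 14.5% of all genes were lower and 8.24% were higher. The 12 were ADAR, DDX60, HERC6, IFI44, IFI44L, IFIT1, IRF9, OASL, PARP14, PARP9, SAMD9 and STAT2. In 23 members the plasmid libraries lay below both siRNA libraries, where 39.4% of all genes did, and in IFITM2, IFITM3 and IRF1 they lay above, where 26.6% did. Of the family medians, that of the 3 tested IFI genes was -1.39 and that of the IFITM genes was 0.43. The count of called members ranged from 0 with another scaling to 7 without the filter on low counts and 9 when only these 4 libraries were fitted. The share of all genes called in these alternative fits is not given here, and the counts cannot be told apart from a change over all genes. Among the control libraries, the summed level of blood and endothelial markers was 2.02 to 3.42 TPM with the plasmid and 5.18 to 5.55 TPM with siRNA, and VWF and PTPRC had log2 fold changes of -2.39 ± 0.59 and -2.04 ± 0.63 without a call. The 7 tested mesenchymal and bone markers had a median log2 fold change of -0.49, as the members did, with RUNX2 called lower (-1.38 ± 0.27), while their summed level was 3421.23 to 3925.21 TPM with the control plasmid and 3817.48 to 4119.85 TPM with control siRNA. Of the epithelial markers KRT18 was called higher (0.97 ± 0.18), and their summed level was 1180.29 to 1295.54 TPM with the control plasmid and 924.01 to 949.27 TPM with control siRNA. The part of these markers in the result was not tested. The SAM68 plasmid libraries had PARP9 at 14.3 and 16.6 CPM and PARP14 at 33.7 and 36.2 CPM, and the SAM68 siRNA libraries had PARP9 at 28.7 and 28.4 CPM and PARP14 at 68.2 and 43.2 CPM.

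**Figure D4:**
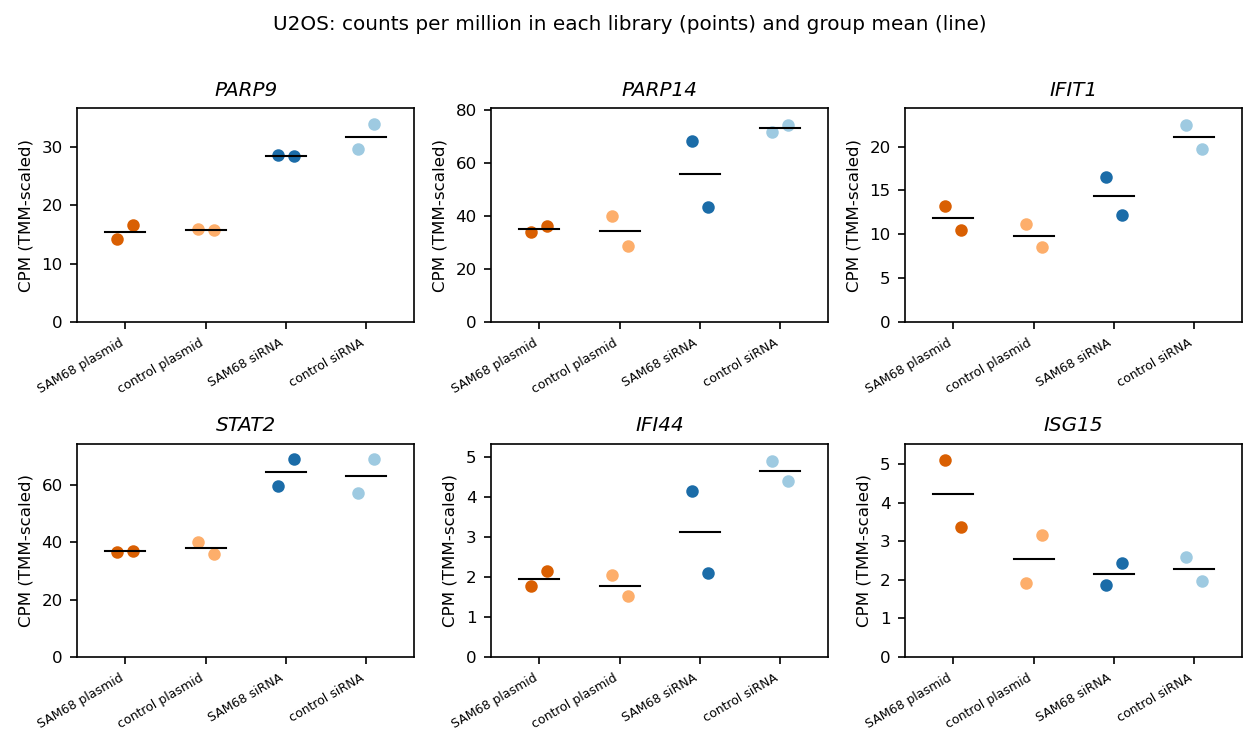
CPM of 6 genes in each U2OS library (points) with the mean of each group of 2 (line). PARP9 and STAT2 are near 16 and 38 CPM in plasmid libraries and near 30 and 63 CPM in siRNA libraries, whichever insert or target they carry.

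U2OS and wild-type HCT116, both with control siRNA, differed in which members they transcribed. Of 41 members tested, 28 were called, 15 higher and 13 lower in U2OS, where 65.4% of all 16444 genes were called, 35.6% higher and 29.8% lower. The members' median log2 fold change was 0.21, against 0.10 over all genes, and it was also 0.21 with HERC5 set at its bound. The share of members called was close to that of all genes, and the largest differences were in members with few or no counts in 1 of the lines.

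PSMB8 had 750 and 942 counts in the U2OS libraries against 4 and 8 counts in the HCT116 libraries, a log2 fold change of 6.64 ± 0.47 (adjusted p = 2.34e-08). Its partner subunit PSMB9 differed less, at 5.65 ± 0.601 CPM in U2OS and 2.75 ± 0.680 CPM in HCT116 (SD, n = 2 each; adjusted p = 0.022). HERC5 had 0 counts in both U2OS libraries and 249 and 218 counts in the HCT116 libraries, and was at least 96.7-fold lower in U2OS when 3 counts per library are taken as the limit of a count of 0. It was also at 0 TPM in the other 6 U2OS libraries. IFI35 had 2 and 0 counts in U2OS against 202 and 126 in HCT116, and IRF7, the master regulator of type I interferon genes, had 1 and 1 count in U2OS against 59 and 19 in HCT116. ISG15 was at 2.13 ± 0.426 CPM in U2OS and 58.0 ± 26.0 CPM in HCT116 (log2 fold change -4.77 ± 0.39, adjusted p = 9.75e-08).

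The IFITM genes were all lower in U2OS, with log2 fold changes of -2.03 ± 0.22 for IFITM3 (adjusted p = 2.02e-06), -1.19 ± 0.20 for IFITM2 and -1.92 ± 0.66 for IFITM1. OAS3 was lower as well, at 23.4 ± 3.41 CPM in U2OS and 76.5 ± 10.0 CPM in HCT116 (-1.71 ± 0.21). Higher in U2OS were PARP9 (29.7 ± 2.67 CPM in U2OS, 10.3 ± 0.820 CPM in HCT116), IFI44 (4.12 ± 0.49 on the log2 scale), IFIT1 (2.07 ± 0.29), STAT2 (1.24 ± 0.18), PARP14 (1.11 ± 0.22) and SP110, a nuclear body protein (0.87 ± 0.22). IFI44L was also higher in U2OS, with 14 and 25 counts against 1 and 0 in HCT116. TAP1 went the other way, with a log2 fold change of -1.07 ± 0.23.

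**Figure D5:**
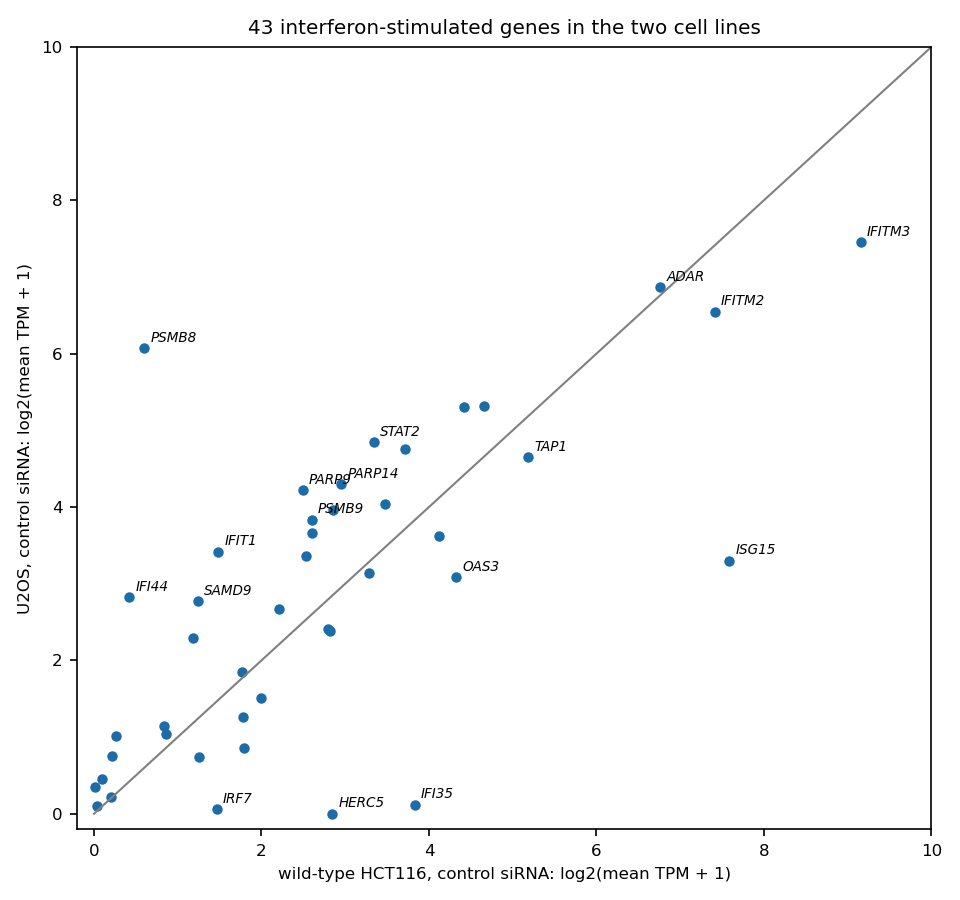
Mean TPM of each of the 43 genes in U2OS (y axis) and wild-type HCT116 (x axis), both with control siRNA, as log2(TPM + 1), with the line of equal level. PSMB8 and IFI44 lie far above the line, and ISG15, IFI35, HERC5 and IRF7 far below it.

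Genes elsewhere in the interferon pathway were counted from 4 further lists. In the SAM68 KO over wild type, averaged over both siRNAs, 3 of 13 receptor and signalling genes were higher and 1 was lower, where 11.0% of all genes were higher and 6.62% lower. IFNAR1, a chain of the type I interferon receptor, was at 58.5 CPM in KO cells and 40.2 CPM in wild-type cells (log2 fold change 0.54 ± 0.11, adjusted p = 0.0155). IFNGR1, the ligand-binding chain of the interferon gamma receptor, was at 43.2 CPM in KO cells and 30.5 CPM in wild-type cells (0.50 ± 0.08, adjusted p = 0.00926). STAT3 was higher (0.26 ± 0.07) and SOCS3, an inhibitor of cytokine signalling, was lower (-0.32 ± 0.09). Of 10 tested sensors and adaptors, TLR3, the endosomal sensor of double-stranded RNA (1.06 ± 0.20), and the kinase TBK1 (0.36 ± 0.09) were higher, and STING1, the adaptor of cytosolic DNA sensing (-0.30 ± 0.09), and the nuclease TREX1 (-0.67 ± 0.15) were lower. Of 31 tested interferon-stimulated genes outside the 43, PLSCR1 was the only call (0.33 ± 0.08, higher), a smaller share than the 17.6% called among all genes. No ligand passed the filter. Genes of these 4 lists were not recomputed under the alternative analyses, in this or in any other contrast. Their calls were therefore not examined with the GC and length offset or with a library left out. Over all genes this contrast correlated with 3′ UTR GC content at Spearman's rho = -0.613.

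In U2OS none of the 4 lists had a call with SAM68 siRNA or with the SAM68 plasmid. With the control plasmid over control siRNA, RNF213, a giant ubiquitin ligase, was lower, at 112 CPM with the plasmid and 261 CPM with siRNA (-1.22 ± 0.21, adjusted p = 0.0357), as was TRIM22 (-1.21 ± 0.23, adjusted p = 0.0456), with no other call among the 36 tested interferon-stimulated genes outside the 43. Among all genes 1.30% were called in this contrast, 1.03% lower. The median log2 fold change of these 36 genes was -0.17, against -0.11 over all genes and -0.49 over the members. At an unadjusted p below 0.05, 5 of them were higher and 6 lower, where 8.24% and 14.5% of all genes were. Neither NORAD siRNA contrast had a call in these lists. Between the lines, 15 of 36 tested interferon-stimulated genes outside the 43 were higher and 12 lower in U2OS, 3 of 12 sensors and adaptors were higher and 6 lower, and 4 of 13 receptor and signalling genes were higher and 1 lower, where 35.6% of all genes were higher and 29.8% lower. CGAS, the cytosolic DNA sensor, was at 5.41 to 9.40 TPM in the 8 U2OS libraries and at most 0.16 TPM in the 8 HCT116 libraries, and IFI16 was at 40.0 to 94.1 TPM in U2OS and at most 0.12 TPM in HCT116. STING1, which acts downstream of CGAS, was at 3.33 to 5.43 TPM in U2OS and 15.2 to 20.8 TPM in HCT116.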

How the data were processed

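Poly(A) RNA was made into libraries with a strand-specific kit, per the labels' protocols, and 16 libraries were used. Expected counts and TPM are RSEM gene estimates over RefSeq genes, deposited by the authors with 1 file per library, per the file headers. The expected counts were used as deposited, without normalization, and rounded to whole numbers, while the deposited TPM, scaled by the authors to a fixed sum per library, served for levels between genes and cell lines. The submitters' processing notes name STAR, RSEM and hg19. Neither their versions nor whether strand was used in counting could be taken from the labels. Overlapping, antisense and near-identical genes are therefore uncertain.

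Of the 27434 rows, 25321 gene numbers matched a RefSeq symbol. Each cell line was fitted with its 4 groups (15658 genes in U2OS, 13764 in HCT116), and the cell lines were compared in a fit of all 16 libraries (16444 genes). Counts were filtered with filterByExpr, scaled by TMM and tested with edgeR 4.0.16 (glmQLFit, glmQLFTest; R 4.3.3, limma 3.58.1), with Benjamini-Hochberg adjustment over all tested genes and calls below 0.05. CPM values are TMM-scaled within a fit. DESeq2 1.42.0 was an alternative, and the others were RLE scaling, no filter, a replicate block, an offset built from the GC content and length of each 3′ UTR, a fit of the compared groups alone, and leaving out each library. The pipeline was run on simulated data with the same spread for every gene and large planted changes in well-counted genes. Small changes and genes with few reads were not covered. The fitted biological coefficient of variation came to 20.0% for U2OS and 11.3% for HCT116. An exact permutation of 2 against 2 libraries cannot go below p = 0.333.

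Separate cultures for the 2 libraries of a group are not stated, and p-values therefore reflect the spread among these libraries alone, which could be technical. The genes, lists and tests were chosen with earlier results of these data known. In each comparison the named members are those called, up to 8 in each direction, and otherwise the 5 of smallest p, and a few further members are named, after their values were seen, to complete a family. Levels are named for the 8 of highest mean TPM per line. Promoters and 3′ UTRs come from GRCh38 annotation, another build than the files, and no coordinates were carried between builds.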

Additional observations from a re-analysis of the deposited data

Results flagged for a closer look

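IFIT5, which binds RNA with an uncapped phosphate end, was flagged by the overlap of its libraries alone. Its NORAD siRNA and control libraries did not overlap in either genotype, with opposite directions. How many of all genes had this pattern was not counted. In SAM68 KO cells IFIT5 was at 55.9 and 46.9 CPM with NORAD siRNA and 41.6 and 43.7 CPM with control siRNA. Both NORAD siRNA libraries were thus above both control libraries, where 22.0% of all genes were. In wild-type cells IFIT5 was at 36.7 and 35.5 CPM with NORAD siRNA and 37.5 and 38.6 CPM with control siRNA. Both NORAD siRNA libraries were thus below both control libraries, by little, where 13.9% of all genes were. The difference of the log2 effects, KO minus wild type, was 0.34 ± 0.17 (edgeR's quasi-likelihood test, adjusted p = 0.642), which does not pass the threshold. With the GC and length offset it was 0.015. Across 11967 genes the same difference correlated with 3′ UTR GC content at Spearman's rho = -0.698, and the part of GC content in the result was not tested further.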

How the results depend on the processing

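Every count of called members was recomputed under the alternatives. The share of all genes called under each alternative is not given here, and changes in the counts cannot be told apart from changes over all genes. The counts for SAM68 siRNA, the SAM68 plasmid, NORAD siRNA in either genotype and the difference of the NORAD effects stayed at 0 in each, and that for U2OS over HCT116 (28) stayed within 1.5 times, at 21 to 27 when a library was left out. For the control plasmid over control siRNA, the count of 1 became 0 with RLE scaling, 7 without the filter, 3 with DESeq2, 6 with the GC and length offset, 2 with the replicate block, 9 when only these groups were fitted, and 0 without any 1 of the 4 libraries. For SAM68 KO over wild type with control siRNA, the count of 0 became 1 (HERC6) without the filter. With NORAD siRNA, the count of 5 became 2 with the GC and length offset, 11 with the replicate block, 8 when only these groups were fitted, and 0 to 2 when a library was left out. For the mean of both siRNAs, the count of 8 became 15 with the replicate block and 1 to 8 when a library was left out. The block is no part of the design, since same-numbered libraries share only a number: the correlation of their deviations was -0.207 to 0.393 in U2OS and 0.0795 to 0.317 in HCT116, with 2 pairs per contrast. The cause of these changes was not tested. Over 64 named results, 584 alternative values kept their direction and side of the threshold, 74 lost the call, 15 gained it and 2 changed sign, IFITM3 with the SAM68 plasmid without SAM68 plasmid replicate 1 (-0.038, main value 0.30, and 0.58 without replicate 2) and IFITM2 in the difference of the NORAD effects with the GC and length offset (0.038, main value -0.24). DESeq2 gave no adjusted p for 3 of the named results, of BST2 and IFIT2. Members below about 1 CPM rest on few reads.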
